A study of Rattus norvegicus with 102 samples.

Results

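The dentate gyrus (DG) is the hippocampal subfield that receives cortical input and is built mainly of granule cells. Its libraries from 24 aged and 10 young rats were compared, and these 34 libraries are 1 of 3 equal sets in the series, which also holds 34 from CA1 and 34 from CA3. The members were the DG libraries of the poly-A count table, sorted by the age in their labels, and the rat identifier series (R9, or R1 and R2 together) entered as a covariate. All animals were male Fischer 344 rats, young at 5 to 6 months or aged at 17 to 22 months, and each gave 1 library per subfield. The aged rats had been sorted by a water maze test into 12 aged-unimpaired (AU) and 12 aged-impaired (AI) animals. The R9 series held 5 young and 11 aged rats, and the R1-R2 series 5 young and 13 aged rats. DG was dissected as whole tissue, so fewer cells of a type and less RNA per cell cannot be told apart in these values. Whether aged DG differed from young DG, and where, was the question of the comparison.

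Brain immune surveillance rests on microglia, the resident macrophages. When activated, such cells take up material through Fc and lipid receptors, break it down in lysosomes and present peptides on major histocompatibility complex (MHC) class II molecules. A class II molecule pairs an alpha and a beta chain that are assembled on the invariant chain Cd74, and in the rat these chains are RT1-B (Ba, Bb) and RT1-D (Da, Db1). Complement proteins such as C1q, C3 and C4 tag synapses and debris, and Gfap is the intermediate filament of astrocytes. Class II promoters carry conserved X and Y boxes, which the class II transactivator Ciita acts through.

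The 4 RT1 chain genes that differed with age are neighbours on chromosome 20, and the stretches before their start sites are shown because these genes moved together. The sequences come from RefSeq (build GRCr8) and run 5′ to 3′ on the strand of the gene. Capitals mark the Y box letters CTGATTGG and, in RT1-Da and RT1-Db1, the X box letters before it, AGCAAC and, after 1 base of any kind, GATG.
RT1-Da, chr20:4515313-4515382, plus strand: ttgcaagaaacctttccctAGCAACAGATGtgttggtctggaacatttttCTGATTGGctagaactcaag
RT1-Db1, chr20:4560226-4560295, minus strand: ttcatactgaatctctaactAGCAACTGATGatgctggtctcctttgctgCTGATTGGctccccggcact
RT1-Ba, chr20:4576961-4577030, plus strand: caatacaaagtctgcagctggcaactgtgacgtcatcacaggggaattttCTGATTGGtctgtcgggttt
RT1-Bb, chr20:4604163-4604232, minus strand: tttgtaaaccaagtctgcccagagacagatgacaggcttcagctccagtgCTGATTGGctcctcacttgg
The Y box began 46 to 83 bases before the start site in these genes. On either strand, its letters occurred in 3.50% of 33469 promoters of 300 bases, and the X box letters in 0.0478% of them. Of the 14 genes on the class II list, 12 had a promoter entry, of which 7 held the Y box letters in gene orientation and 4 the X box letters. RT1-Db2, RT1-DOa and RT1-Ha were the other holders of the Y box, so its letters were not particular to the 4 genes. Of these, RT1-DOa had a median of 0 normalized counts in young and in aged rats, too low to compare. The X box letters were held by RT1-Db2 and RT1-DOb as well. RT1-DOb had medians of 4.04 in young and 2.91 in aged rats, also low. Only the exact letters were searched, so a box with other letters is not marked. Whether the Y box or the X box goes with the age difference was not tested.

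Before the comparison, depth and dissection were checked. DG libraries held from 4478984 to 18739670 recovered reads. Young libraries averaged 11361101 ± 3959113 reads and aged libraries 9111234 ± 2455460 (SD, n = 10 and 24, two-sided permutation test, p = 0.0487). Depth thus moved with age, and without the 2 deepest young libraries 16 genes passed the test described next, all higher. The granule cell score was the highest of the 3 subfield scores in 29 of 34 DG libraries. In the remaining 5 (1 young, 2 AU and 2 AI, with 4 of them R9) a CA1 or CA3 score was higher. Without these 5 libraries 16 genes passed, again all higher. In each of the 2 fits, 15 of the 16 were among the 21 genes called in all 34 libraries. Ifi27, Trem2, Gpr183 and Ctsz lost their call in both fits. Prox1, the transcription factor of granule cell identity, was listed at 307.8, 1027 and 1949 normalized counts in young rats (lowest, median, highest) and at 180.8, 993.7 and 1607 in aged rats.

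In limma, aged DG differed from young DG in few genes, all of them higher. Of 16192 genes with a mean normalized count of at least 5, 21 passed an adjusted p of 0.05 in limma (0.13% of the genes tested), 21 of them higher and 0 lower in aged rats. At an unadjusted p under 0.05, 5.1% of the genes were higher and 3.98% lower, 1470 genes in all, and the median log2 difference of all genes was -0.0046. The called differences ran from 0.48 to 2.57 on the log2(normalized count + 1) scale. Leaving out the AI rat R2233, whose DG library had the fewest reads (4478984), raised the count to 38 genes, 37 of them higher. All 21 stayed among them. This was 1 of 34 fits that each left out 1 library. Where such a fit is given below for an uncalled gene, it was picked because the gene passed in it. DESeq2 called 56 genes, 50 higher and 6 lower, and limma with array weights 290, of which 190 were higher and 100 lower, with all 21 among each set. In no gene did the 24 aged rats lie wholly above or below the 10 young rats (0% of the genes tested in each direction).

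**Figure D1:**
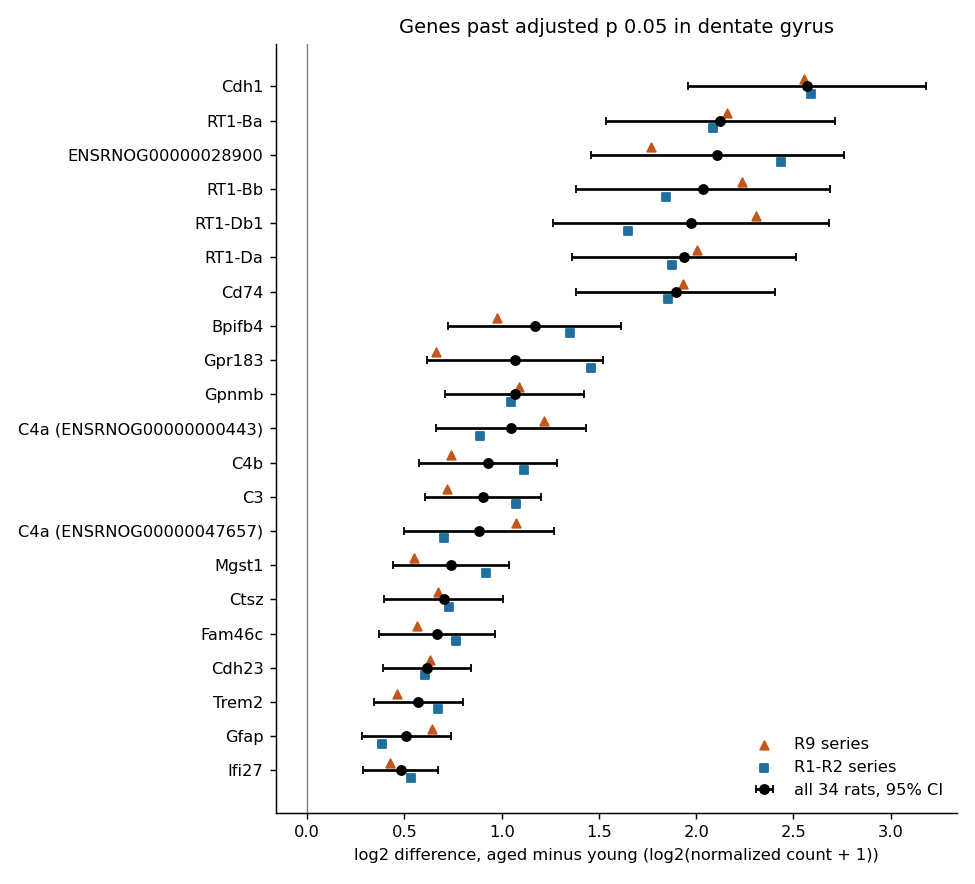
The 21 genes past adjusted p 0.05 in DG. The x axis gives the log2 difference, aged minus young, of log2(normalized count + 1); black points are the fit over 34 rats with 95% confidence intervals, triangles the R9 series and squares the R1-R2 series. All intervals lie above 0, from Ifi27 at 0.48 to Cdh1 at 2.57, and both series lie above 0 for each gene.

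Cdh1, which encodes the adhesion protein E-cadherin, differed most. It was listed at 0, 5.62 and 21.9 normalized counts in young rats and at 15.6, 38.7 and 62.3 in aged rats (lowest, median, highest). Of the aged rats, 20 of 24 were above the highest young rat, and 8 of 10 young rats were below the lowest aged rat. The log2 difference was 2.57 ± 0.30 (SE), 5.94-fold with a 95% interval of 3.89 to 9.09 (limma, adjusted p = 4.39e-06). R9 and R1-R2 rats gave 2.55 ± 0.44 and 2.59 ± 0.43, and Cdh1 alone passed the test in every alternative fit that was run.

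MHC class II genes formed the largest called group. The list's 14 genes gave 10 tested rows, with RT1-DMa in more than 1 of them. Of these, 5 rose, where 0.13% of all genes tested were called: Cd74 and the 4 RT1 chains RT1-Ba, RT1-Bb, RT1-Da and RT1-Db1. The list's median was 1.18 against -0.0046 for all genes tested. It fell in a gap, below the 5 called rows (1.89 to 2.12) and above every uncalled row, so it describes no single member. The invariant chain Cd74 was listed at 19.5, 93.4 and 175.4 normalized counts in young rats and at 102.8, 334.7 and 835.2 in aged rats. Of the aged rats, 15 of 24 exceeded the highest young rat, and all 24 exceeded the young median. Its log2 difference was 1.89 ± 0.25 (SE; 3.72-fold, 95% interval 2.61 to 5.29, limma, adjusted p = 4.1e-05).

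The chains that Cd74 carries differed by similar amounts. RT1-Ba, an alpha chain, was listed at 3.99, 13.8 and 28.3 in young and 11.5, 56.1 and 159.4 in aged rats (log2 difference 2.12 ± 0.29, limma, adjusted p = 5.26e-05). RT1-Da, the other alpha chain, ran from 5.01 through a median of 20.8 to 43.0 in young and from 15.6 through 66.0 to 305.4 in aged rats (1.94 ± 0.28, limma, adjusted p = 0.000171). Both alpha chains overlapped between the groups at the low end of the aged range.

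The beta chains showed the same order. RT1-Bb was listed at 1.63, 14.8 and 41.7 in young and 8.34, 61.2 and 210.5 in aged rats (2.04 ± 0.32, limma, adjusted p = 0.000599). RT1-Db1 was listed at 1.09, 14.05 and 23.3 in young and 7.73, 52.4 and 193.8 in aged rats (1.97 ± 0.35, limma, adjusted p = 0.0034). RT1 genes have near-identical copies, so reads could have been split among them and single RT1 values are uncertain. The list members that did not pass included 2 rows named RT1-DMa (0.19 and 0.08) and RT1-DMb (0.46), which load peptides onto class II molecules. Ctss, the protease that trims the invariant chain, differed by 0.27 (limma, adjusted p = 0.511). Ciita itself was below the minimum mean, at a median of 1.82 normalized counts in young and 3.68 in aged rats.

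**Figure D2:**
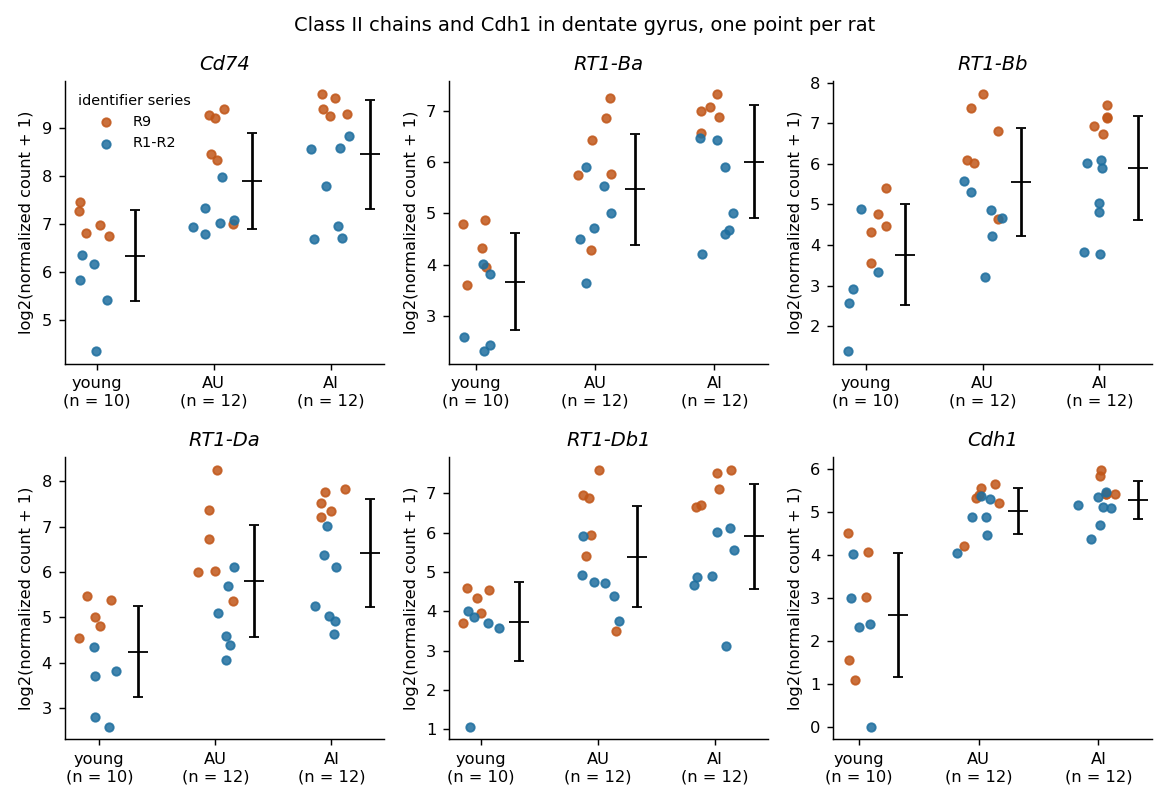
Class II genes and Cdh1 by group, one point per rat. The y axis is log2(normalized count + 1); colours give the identifier series, and the bar gives mean and SD of each group (10 young, 12 AU, 12 AI). For Cd74 the young R9 rats sit above the young R1-R2 rats, at 106.5 to 175.4 against 19.5 to 80.3 normalized counts, while the aged rats of the series overlap.

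Class II levels also differed by series. Cd74 ran from 106.5 to 175.4 in the 5 young R9 rats and from 19.5 to 80.3 in the 5 young R1-R2 rats, without overlap. Among aged rats the series overlapped, with a median of 614.3 in R9 (126.5 to 835.2) and 134.2 in R1-R2 (102.8 to 455.4). The age difference was nevertheless close in both, 1.93 ± 0.36 in R9 and 1.86 ± 0.36 in R1-R2 (SE). Compared within their own series, 23 of 24 aged rats were above the highest young rat for Cd74, as were 22 for RT1-Ba, 22 for RT1-Da, 21 for RT1-Db1 and 16 for RT1-Bb. The labels do not name what the series stand for. Leaving the series out of the fit left 12 genes past the threshold.

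Among the aged rats, the chains followed Cd74 within each series. Over the 11 aged R9 rats, Pearson's r of log2 values with Cd74 was 0.907 to 0.978 for the 4 RT1 chains, and Spearman's rho was 0.745 to 0.936 (permutation tests adjusted over 40 relations, largest adjusted p = 0.0027 for r and 0.052 for rho). Over the 13 aged R1-R2 rats, r was 0.678 to 0.843 and rho 0.676 to 0.885 (permutation tests, largest adjusted p = 0.045 and 0.054). Without the 2 rats farthest from the Cd74 median, r was 0.784 to 0.903 in R9 and 0.450 to 0.752 in R1-R2. Of the other 16 called genes, 0 passed for r in R9 and 5 in R1-R2 (C3, C4b, Gpr183, Ctsz and Gfap), so in R1-R2 the relation was not particular to the RT1 chains. C3 had r of 0.635 in R9 (permutation test, adjusted p = 0.074) and 0.804 in R1-R2 (adjusted p = 0.0069), rho of 0.655 and 0.830 (permutation tests, adjusted p = 0.099 and 0.0068), and r of 0.529 and 0.934 without the 2 farthest rats. C4b had r of -0.254 in R9 (permutation test, adjusted p = 0.56) and 0.668 in R1-R2 (adjusted p = 0.045), rho of -0.282 and 0.637 (permutation tests, adjusted p = 0.52 and 0.073), and r of 0.0349 and 0.860 without the 2 farthest rats. Whether the relations differed between series was not tested. Pooled values are not given, because the young rats of the series did not overlap in Cd74 and the aged medians lay apart. Of the 40 relations, 13 passed for r.

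Complement genes rose as a second group. Of 27 tested, 4 rows passed, namely C3, C4b and 2 rows named C4a. At an unadjusted p under 0.05, 12 were higher and 0 lower (median 0.22). Over all genes tested, 0.13% were called, and 5.1% were higher and 3.98% lower unadjusted. C3, the protein on which the complement pathways converge, was listed at 245.5, 540.9 and 971.0 normalized counts in young rats and 470.2, 883.2 and 1549 in aged rats. The log2 difference was 0.90 ± 0.15 (SE, limma, adjusted p = 0.000906), and 9 of 24 aged rats were above the highest young rat.

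C4b was lower in level than C3 but parted the groups further. It was listed at 26.1, 45.1 and 60.2 in young and 46.9, 78.2 and 166.9 in aged rats (0.93 ± 0.17, limma, adjusted p = 0.0059), with 20 of 24 aged rats above the highest young rat. The 2 rows named C4a differed by 1.05 ± 0.19 and 0.88 ± 0.19, and the latter lost its call in 11 of the 34 fits that left out 1 library. The C4 genes are near-identical copies, so these 3 rows may share reads and are uncertain as separate genes. The 3 subunits of C1q, which starts the classical pathway, did not pass: C1qa differed by 0.50 ± 0.13, C1qb by 0.36 ± 0.11 and C1qc by 0.46 ± 0.13 (limma, adjusted p from 0.12 to 0.319). Without the AI rat R2233, C1qa passed (adjusted p = 0.0283).

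**Figure D3:**
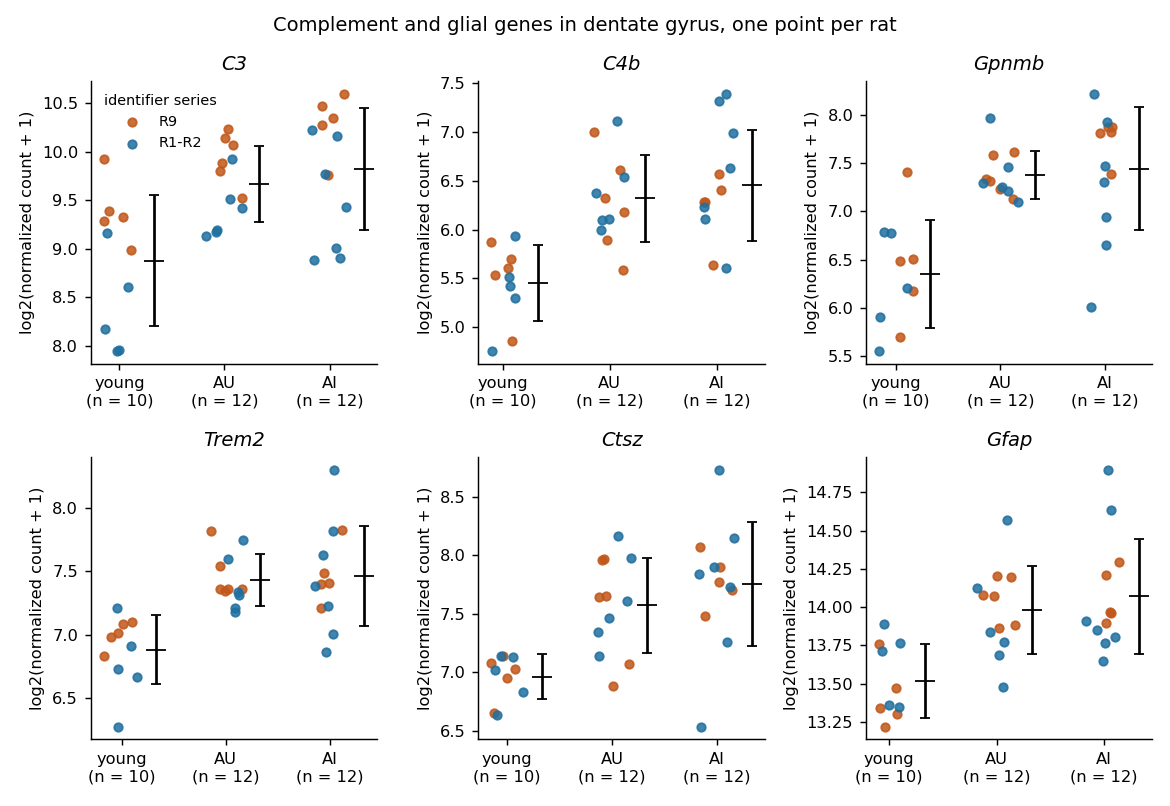
Complement and glial genes by group, one point per rat. The y axis is log2(normalized count + 1); colours give the identifier series, and the bar gives mean and SD of each group (10 young, 12 AU, 12 AI). C4b, Trem2 and Ctsz each have 20 of 24 aged rats above the highest young rat, while C3 has 9.

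Receptors and lysosomal genes of activated microglia gave 4 further calls, Trem2, Gpnmb, Ctsz and Gpr183. Trem2, a microglial receptor for lipids, was listed at 76.5, 122.4 and 147.0 normalized counts in young and 115.7, 165.0 and 314.9 in aged rats (0.57 ± 0.11, limma, adjusted p = 0.0126). Gpnmb, a transmembrane glycoprotein of phagocytes, was listed at 46.1, 80.9 and 168.6 in young and 63.4, 163.7 and 296.6 in aged rats (1.07 ± 0.18, limma, adjusted p = 0.00094). Ctsz, a lysosomal cysteine protease, was listed at 98.5, 129.1 and 140.3 in young and 91.9, 209.6 and 424.4 in aged rats (0.70 ± 0.15, limma, adjusted p = 0.0335). Its young rats lay in a narrow band inside the wide aged range, and none was below the lowest aged rat. The Ctsz call was lost in 14 of the 34 fits that left out 1 library. Gpr183, an oxysterol receptor that guides immune cells, differed by 1.07 ± 0.22 (limma, adjusted p = 0.0244).

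The lists behind these genes leaned the same way, with few members past the test. For scale, 0.13% of all genes tested were called, and 5.1% were higher and 3.98% lower unadjusted. Of 30 microglial identity genes tested, 1 rose (Trem2), and 13 were higher and 0 lower at an unadjusted p under 0.05 (median 0.29). P2ry12, a purine receptor of homeostatic microglia, was listed at a median of 145.0 in young and 202.8 in aged rats (0.44 ± 0.11, limma, adjusted p = 0.0936, and 0.0111 without the AI rat R2233). Cx3cr1, the fractalkine receptor, had medians of 368.2 and 393.5 (0.19 ± 0.10, limma, adjusted p = 0.557). Of 20 genes of disease-associated microglial activation, 2 rose (Gpnmb and Ctsz, median 0.19). Its members Apoe (0.18) and Lpl (-0.30), both of lipid transport and breakdown, did not pass.

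Of 62 lysosomal genes tested, 1 rose (Ctsz), with 21 higher and 0 lower at an unadjusted p under 0.05 (median 0.13). The shares over all genes tested were 0.13% called, and 5.1% higher and 3.98% lower unadjusted. Of 35 Fc receptor and phagocytosis genes, 0 passed the adjusted test in limma, with 16 higher and 0 lower unadjusted (median 0.25). Of 33 genes of MHC class I presentation, 0 passed in limma, with 10 higher and 0 lower unadjusted (median 0.12). B2m, the light chain of class I molecules, had medians of 2426 in young and 2501 in aged rats (0.11 ± 0.08), so the class II difference had no counterpart of its size there. Of 52 interferon response genes, 1 rose: Ifi27, an interferon-inducible gene, at 0.48 ± 0.09 (limma, adjusted p = 0.0116). In that list 9 were higher and 0 lower unadjusted (median 0.12, and by series -0.065 in R9 and 0.31 in R1-R2). The Ifi27 call was lost without the libraries of low granule cell score and without the 2 deepest young libraries.

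**Figure D4:**
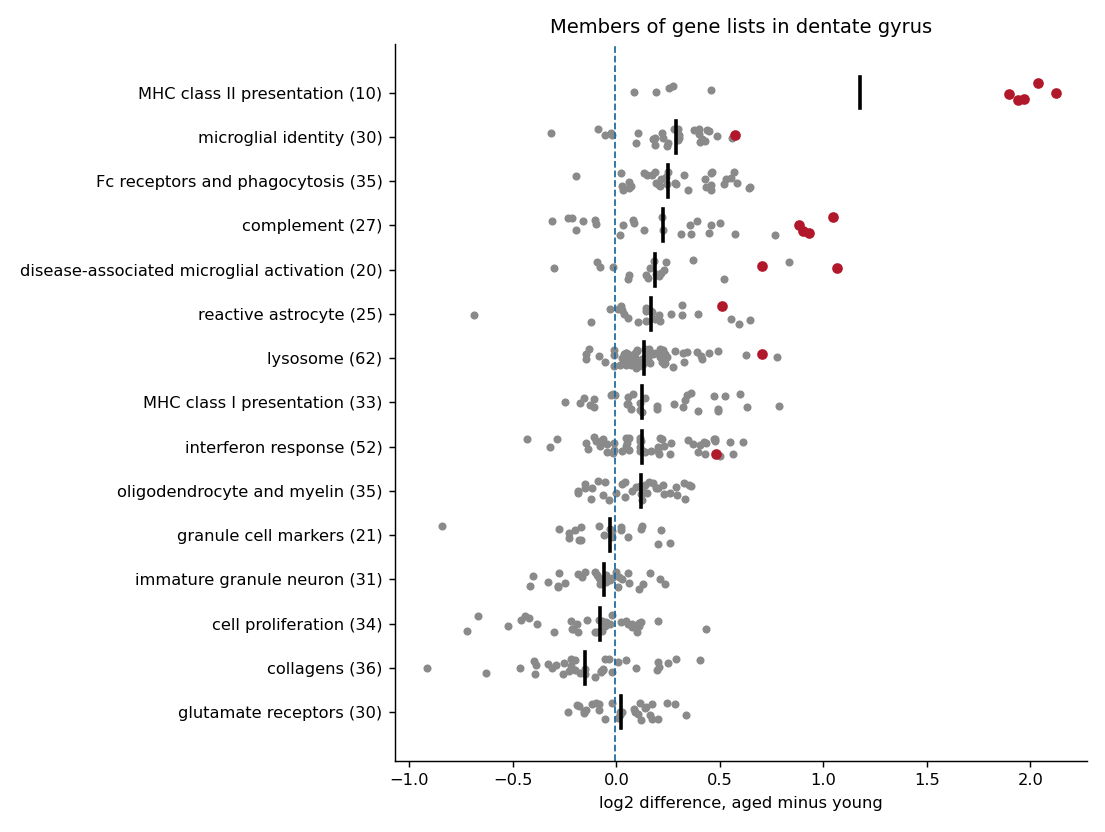
Log2 differences, aged minus young, of the tested members of 15 gene lists (number tested in brackets). Grey points are members that did not pass, red points members past adjusted p 0.05, black bars list medians, and the dashed line the median of all genes tested (-0.0046). The class II list has its 5 called members at 1.89 to 2.12, while granule cell, immature neuron and proliferation lists lie around 0.

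Astrocyte genes gave 1 call. Gfap was listed at 9530, 10916 and 15186 normalized counts in young and 11419, 15662 and 30559 in aged rats (0.51 ± 0.11, limma, adjusted p = 0.0481), and 24 of 24 aged rats exceeded the young median. The call was lost in 22 of the 34 fits that left out 1 library. Of 25 reactive astrocyte genes 6 were higher and 1 lower at an unadjusted p under 0.05 (median 0.17). Among all genes tested, 5.1% were higher and 3.98% lower at that threshold. The astrocyte filament gene Vim (0.26 ± 0.18), the glutamate transporter Slc1a2 (-0.08 ± 0.10) and the water channel Aqp4 (-0.10 ± 0.12) did not pass. Of 27 astrocyte identity genes, 0 passed in limma and 5 were higher unadjusted (median 0.13).

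The other called genes belong to varied groups. Cdh23, a cadherin of hair cell tip links, was listed at 54.9, 87.1 and 124.5 in young and 89.4, 127.3 and 172.3 in aged rats (0.62 ± 0.11, limma, adjusted p = 0.00394). Cdh1 and Cdh23 were the 2 called of 54 cadherins and protocadherins tested, where 0.13% of all genes tested were called. Mgst1, a glutathione transferase, differed by 0.74 ± 0.15, Bpifb4 by 1.17 ± 0.22 and Fam46c by 0.67 ± 0.15 (limma, adjusted p = 0.014, 0.0059 and 0.044). Fam46c lost its call in 21 of the 34 fits that left out 1 library. The gene ENSRNOG00000028900, which has no symbol in the files, was listed at 0, 5.15 and 26.6 in young and 8.43, 20.7 and 48.2 in aged rats (2.11 ± 0.32, limma, adjusted p = 0.000314).

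Granule cell, neurogenesis and synaptic genes gave no calls in limma. Their unadjusted counts stand beside 5.1% higher and 3.98% lower among all genes tested. Of 21 granule cell markers, 0 passed, and 1 was lower unadjusted (median -0.03). The DG marker C1ql2 had medians of 897.9 and 1175 in young and aged rats (0.26 ± 0.29), and the calcium buffer Calb1 970.3 and 747.3 (-0.23 ± 0.17). Of 31 immature granule neuron genes, 0 passed, with 0 higher and 2 lower unadjusted (median -0.06). Dcx, the microtubule protein of migrating newborn neurons, was listed at 185.0, 350.0 and 616.8 in young and 129.1, 283.6 and 438.2 in aged rats (-0.42 ± 0.16, limma, adjusted p = 0.532). The other unadjusted one was Stmn2, named after its values were seen, a tubulin-binding protein of growing axons (-0.28 ± 0.09, limma, adjusted p = 0.43).

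Sox11 and Neurod1, transcription factors of newborn granule neurons, differed by -0.33 ± 0.23 and -0.19 ± 0.12. Of 34 proliferation genes, 0 passed in limma, with 0 higher and 2 lower unadjusted (median -0.08), against 5.1% and 3.98% of all genes tested. Mki67, the proliferation antigen, had medians of 152.3 and 158.7 (-0.02 ± 0.13). Of 30 glutamate receptor genes 0 were higher and 0 lower even unadjusted (median 0.02), and of 37 activity-regulated genes 1 was higher (median 0.01).

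Myelin and matrix lists gave no calls in limma. Unadjusted, 5.1% of all genes tested were higher and 3.98% lower, and the counts of these lists stand beside those shares. Of 35 oligodendrocyte and myelin genes, 0 passed in limma, with 3 higher and 0 lower unadjusted (median 0.12), and Mbp, a structural protein of the myelin sheath, differed by 0.12 ± 0.15. Of 36 collagens, 0 passed in limma, with 0 higher and 2 lower unadjusted (median -0.15, and 0.0031 in R9 and -0.27 in R1-R2 alone). Of 46 other extracellular matrix genes, 0 passed in limma, with 1 higher and 2 lower unadjusted (median 0.05). Col11a1, named after its values were seen, was the gene nearest to a call among those lower in aged rats. This fibrillar collagen chain was listed at 226.5, 324.9 and 499.1 in young and 42.6, 182.6 and 374.0 in aged rats (-0.92 ± 0.22, limma, adjusted p = 0.0848). Of the aged rats, 16 of 24 were below the lowest young rat. It passed without the AI rat R2233 (adjusted p = 0.0337), without the AI rat R2189 (adjusted p = 0.0259), in the R9 series alone (adjusted p = 0.0348) and in DESeq2 (adjusted p = 0.0108).

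Markers of other cell types were read beside these results, with 5.1% of all genes tested higher and 3.98% lower unadjusted. The 8 tested border macrophage markers had 2 higher and 0 lower unadjusted, and the summed level of the list ran from 101.4 through a median of 143.8 to 274.9 in young and from 104.1 through 194.8 to 265.3 in aged rats. Of these 8, 6 had positive and 2 negative differences (median 0.28). Of their defining markers, Cd163 had medians of 10.4 and 12.5 in young and aged rats, Mrc1 31.7 and 35.7, and Lyve1 23.7 and 30.8. The 2 higher unadjusted, named after their values were seen, were Folr2 (medians 4.34 and 8.16) and Clec10a (24.6 and 32.2). The B cell genes Cd79a and Ms4a1 were at 0 in 31 and 33 of 34 libraries. The T cell gene Cd3d was at 0 in 29, and no neutrophil or monocyte marker reached the minimum mean. Of 5 tested erythrocyte markers, 3 were higher unadjusted, and the list's summed level had medians of 393.7 in young and 606.5 in aged rats (200.4 to 540.2 and 243.0 to 1529). Most of that was the haemoglobin gene Hba-a2 (0.77 ± 0.22, limma, adjusted p = 0.277), a member of a family with near-identical copies. The part of border macrophages and blood in the age differences was not tested.

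AU and AI rats were also compared with the young rats separately. In AU rats 11 genes passed (0.0679% of the genes tested), 10 of them among the 21 and all 10 higher. In AI rats 13 passed (0.0803%), 12 of them among the 21 and all 13 higher. All 21 genes had positive differences in both groups, with 16 larger in AI. The 21 were called with both groups pooled, so the positive signs in each are a description. Without the series as covariate, 2 genes passed in AU and 9 in AI rats. Cd74 differed from young by 1.56 ± 0.27 in AU and 2.23 ± 0.27 in AI rats, RT1-Da by 1.56 ± 0.30 and 2.32 ± 0.30, and Cdh1 by 2.43 ± 0.34 and 2.72 ± 0.35. AU and AI share the young rats as controls, and no gene of the 21 passed the test of AI minus AU. In that test Cd74 differed by 0.67 ± 0.25 (limma, unadjusted p = 0.0118).

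The 2 calls outside the 21 were named after their values were seen. Adgre1, the macrophage receptor F4/80, was called in AI rats (0.59 ± 0.12, limma, adjusted p = 0.0193) and differed by 0.30 ± 0.12 in AU rats. Ptgfr, the prostaglandin F receptor, fell in AU rats (-1.72 ± 0.35, limma, adjusted p = 0.0318) and differed by -0.49 ± 0.35 in AI rats. It was listed at 2.60, 9.85 and 16.7 in young rats and at 0, 3.13 and 9.14 in all aged rats, near the minimum mean.

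The age difference in DG was then set against that in CA1 and CA3 of the same rats. For each rat the DG value minus the mean of CA1 and CA3 was tested for age, and 0 of 16374 genes passed the adjusted test in limma (0%), with 638 at an unadjusted p under 0.05 (3.9%). All 21 genes called in DG had positive differences in CA1 and in CA3, and 19 of 21 were larger in DG than in the mean of the other subfields. Since the 21 were chosen for their difference in DG, that count is a description. For Cd74 the differences were 1.89 in DG, 1.38 in CA1 and 1.74 in CA3, and the 95% interval of DG minus the others was -0.55 to 1.23. C4b (0.93, 0.93 and 0.67) and Gfap (0.51, 0.58 and 0.44) were as close.

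The smallest p-values of DG minus the others among the 21 were those of Cdh1 and Ifi27. Cdh1 differed by 2.57 in DG, 1.91 in CA1 and 0.87 in CA3 (DG minus the others 1.18 ± 0.37, limma, unadjusted p = 0.00315). Ifi27 differed by 0.48 in DG, 0.11 in CA1 and 0.04 in CA3 (0.40 ± 0.14, limma, unadjusted p = 0.00645). ENSRNOG00000028900 (1.19 ± 0.43) and Gpnmb (0.48 ± 0.20) also had an unadjusted p under 0.05 (limma, p = 0.00954 and 0.0189), which makes 4 of 21. Of the 16 CA3 libraries of the R9 series, 14 had another subfield's score above the CA3 score, so the CA3 values of that series are uncertain.

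**Figure D5:**
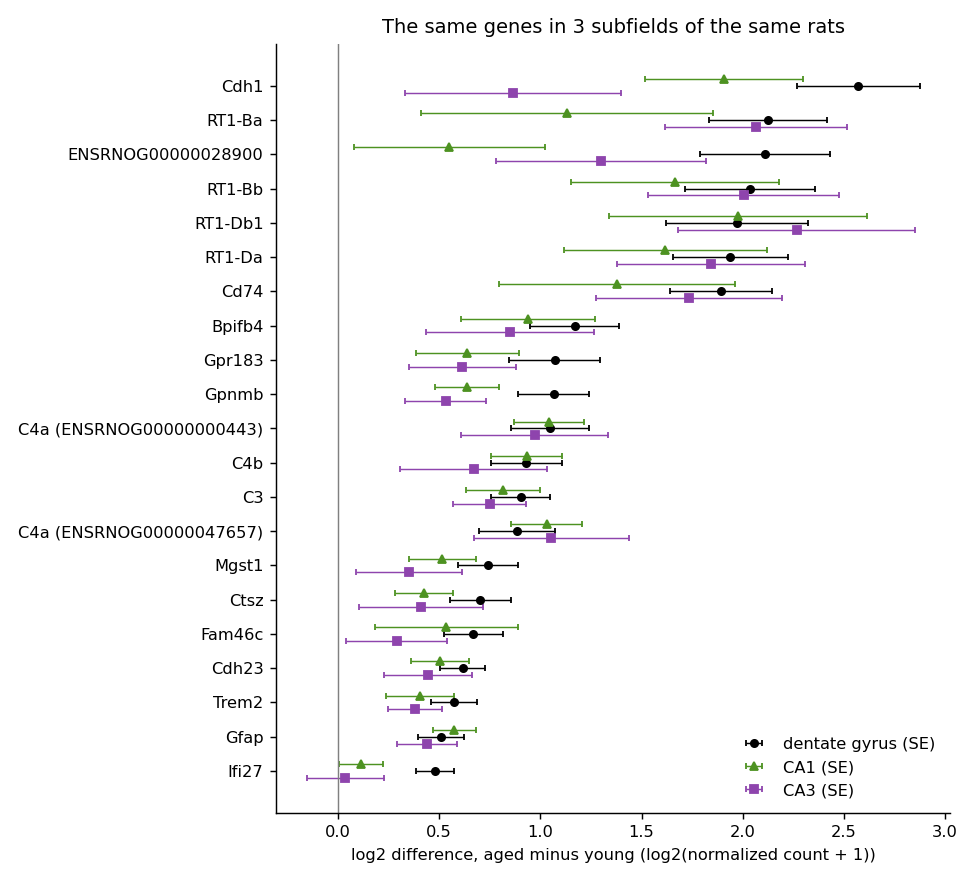
Log2 differences, aged minus young, of the 21 genes in 3 subfields of the same 34 rats. Circles are DG, triangles CA1 and squares CA3, with standard errors; the x axis is the difference in log2(normalized count + 1). All points lie above 0, and Cdh1 runs from 0.87 in CA3 to 2.57 in DG.

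The size of the age difference was also compared between the 2 identifier series. The age by series term gave 0 of 16192 genes past the adjusted test in limma (0%), with 742 at an unadjusted p under 0.05 (4.58%), and 0 of the 21 genes were among the latter. Both series gave positive differences for 21 of 21 genes, but the 21 were chosen on these same rats, so that count is a description. Gpr183 differed most, 0.66 ± 0.31 in R9 and 1.46 ± 0.30 in R1-R2, and Gfap 0.64 ± 0.16 and 0.38 ± 0.16.

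Of the 29 genes that the study had named for age, 10 passed here and 27 were higher and 1 lower at an unadjusted p under 0.05 (median 0.49). The study took its age genes from Illumina reads by DESeq2 p-values without this adjustment. It retested them on the Ion Proton at p under 0.05, in the direction that Illumina gave. An adjusted p on the Ion Proton alone is a stricter threshold, so 10 of 29 is not a measure of agreement. The study chose that list on these samples, so it is no independent evidence of its direction. Beyond the called genes it held Npc2, a lysosomal cholesterol carrier (0.49 ± 0.12), Cd4, which microglia of the rat express (0.77 ± 0.21), and Fcgr2b, an inhibitory Fc receptor (0.52 ± 0.13), none of which passed (limma, adjusted p from 0.11 to 0.191). Npc2 and Cd4 passed without the AI rat R2233 (limma, adjusted p = 0.0215 and 0.0377), and Fcgr2b without the AU rat R9865 (limma, adjusted p = 0.0314). These fits were picked, from 34 that each left out 1 library, because the genes passed in them. The 1 lower gene was Col4a5, a basement membrane collagen chain (-0.39 ± 0.19).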

How the data were processed

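Poly-A RNA of DG, CA1 and CA3 had been sequenced on the Ion Proton. The authors aligned reads to rn5 with TopHat2 and Bowtie2 in Partek, counted them per gene with featureCounts (1.4.4) and deposited counts divided by DESeq2 (1.10.1) size factors. These deposited values are a normalized signal, and 100% of them gave whole reads (tolerance 1e-06). Groups came from the sample labels. In DG, log2(value + 1) of genes with a mean of at least 5 was fitted in limma (3.58.1) on age and identifier series, with Benjamini-Hochberg adjustment at 0.05. The tests for CA1 and CA3 used differences within a rat, since the labels give the 3 libraries of a number to the same animal. The mean correlation of such libraries' deviations was 0.0542 for CA1 with DG and 0.0517 for CA3 with DG. edgeR (4.0.16) and DESeq2 (1.42.0) on the recovered reads served as alternatives, and the fit was checked on simulated data. No replicate label says more than 1 animal per library, and p-values measure the spread between animals. Named genes were the called ones, the first 3 uncalled members of each list and the study's age genes, with any other marked in the text; a gene that this rule would name is not reported here. The members and lists were chosen with earlier results of these data known. Of 26689 genes, 4719 had no symbol and kept their identifier. Depth limits precision for genes near the minimum mean.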

Additional observations from a re-analysis of the deposited data

Results flagged for a closer look

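In the 10 young rats, 5 of the genes chosen by the naming rule or named above had 1 animal far from the others. The gap was larger than Dixon's 95% limit for 10 values on the log2 scale. In all, 70 results were tested in this way and 5 were flagged, while chance alone marks about 1 in 20 groups. The lowest young rat had 1.09 normalized counts of RT1-Db1 (next lowest 11.0), 3569 of Stmn2 (next 5034), 36.1 of Ncf1, an oxidase subunit of phagocytes (next 56.1) and 189.0 of Neurod1 (next 373.7). The highest young rat had 97350 normalized counts of Mbp (next 46840). None of these or the genes named above passed the test for a difference of the age effect between subfields or between series.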

How the results depend on the processing

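For age in DG, the count of 21 genes stayed within 1.5 times under another pseudocount, no filter, a higher minimum mean, TMM scaling and edgeR. It was 12 without the series as covariate, all higher. DESeq2 gave 56 genes, 50 higher and 6 lower, and limma array weights 290, 190 higher and 100 lower; all 21 were among both sets. Fits on fewer rats gave 7 genes with AU rats alone and 8 with AI rats alone, all higher, 5 in the R9 series alone (4 higher, 1 lower, Col11a1) and 1 in the R1-R2 series alone (Cdh1). Leaving out 1 library at a time gave 15 to 38 genes, 15 to 37 higher and 0 to 1 lower (15 without the young rat R1923, 38 without the AI rat R2233). Of the 21, 14 kept the call each time. Of the 34 fits, Gfap lost it in 22, Fam46c in 21, Ctsz in 14 and the second C4a row in 11. Mgst1 and Gpr183 each lost it in 3 and Trem2 in 1. Ifi27, Trem2, Gpr183 and Ctsz also lost it without the libraries of low granule cell score and without the 2 deepest young libraries. AU rats against young gave 2 genes without the covariate.

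No call was made for DG minus CA1 and CA3 under any alternative; with the replicate block, the difference within a rat, 0 genes passed and 638 had an unadjusted p under 0.05, and with no replicate block 0 and 335. The age by series term likewise gave 0 throughout. None of the 21 called genes changed direction in any fit that tested it. Since the 21 were chosen in the main fit on the same rats, this is a description. Among uncalled genes the direction turned for Sox11 (0.033) and B2m (-0.022) in R9 alone, for Aqp4 (0.016), Slc1a2 (0.029) and Mbp (-0.0039) in R1-R2 alone and for Prox1 with AU rats alone (0.032). Mki67 turned with AU rats alone (0.039), in R1-R2 alone (0.15) and without the libraries of low granule cell score (0.011), and ran from -0.12 to 0.019 with 1 library left out. The causes were not tested. Fitting without the 2 deepest young libraries was chosen after seeing the data.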
